A study of Homo sapiens with 3 samples.

Results

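Receptor tyrosine kinases and growth factors other than MET were followed here in EBC-1, a human cancer cell line grown from a squamous carcinoma of the lung. The rule named 10 genes by symbol, and 9 of them matched 1 entry each among the 13479 entries of the expression table. They are the receptors EGFR, ERBB2, IGF1R, INSR, AXL and EPHA2 and the growth factors VEGFA, FGF2 and EREG. ERBB3 matched no symbol there and has no value here. The assay was CAGE (cap analysis of gene expression), in which a short tag is read from the capped 5′ end of each RNA. The groups were EBC-1 cells given RAB11A siRNA 1, EBC-1 cells given RAB11A siRNA 2 and EBC-1 cells given a negative control siRNA, with 1 library in each. All cells had been electroporated with 600 pmol siRNA in 200 µl of suspension, and the labels give 72 h after plating. Levels are in CPM, a gene's tags scaled to a fixed library size, and 1 tag is worth 0.04 CPM in every library.

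With 1 library per group, no difference below has a replicate check, and no p-value compares the conditions. Intervals are exact at 95%, take each tag as an independent draw and so hold only the error of counting. In a bulk library, fewer cells of a kind and less RNA per cell cannot be told apart. Both siRNA libraries are set against the same control library, so their differences from it are not independent of each other. Of 5 epithelial markers 4 had values, summing to 1012.6, 878.3 and 827.5 CPM with siRNA 1, siRNA 2 and control. KRT8 stood at 357.9, 328.9 and 328.2 CPM, KRT18 at 475.0, 394.1 and 385.8 CPM, KRT19 at 175.4, 151.6 and 109.3 CPM and EPCAM at 4.28, 3.72 and 4.20 CPM in those libraries. The epithelial sum was thus highest with siRNA 1, and its part in the results below was not tested. CDH1 and all 4 squamous markers, TP63, KRT5, KRT6A and SOX2, matched no entry in the table used here. Of 12 fibroblast, endothelial and leukocyte markers only COL1A1, at 1.04 to 1.12 CPM, and CD68, at 21.1 to 45.2 CPM, had values, and neither PTPRC, which defines leukocytes, nor PECAM1, which defines endothelium, matched an entry.

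Receptor tyrosine kinases sit in the plasma membrane, bind a ligand outside the cell and phosphorylate each other inside it, which starts the RAS-ERK and PI3K-AKT cascades. Activated receptors are taken up into endosomes, from which they are either degraded in lysosomes or returned to the surface. RAB11A, the small GTPase targeted here, acts on the recycling endosome that returns them. EGFR is a major drug target in lung cancer, and AXL is known for its part in resistance to EGFR inhibitors. CAGE reads RNA levels only and says nothing of receptor protein at the surface.

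The target itself was lower in both knockdown libraries. RAB11A (chr15:66018392-66184327, GRCh37) stood at 7.48 CPM with siRNA 1 and 22.7 CPM with siRNA 2, against 135.3 CPM with control siRNA. That left 5.53% of the control level with siRNA 1 (4.75% to 6.41%) and 16.8% with siRNA 2 (15.3% to 18.3%). The siRNA strands are shown as the labels give them, with capitals on the 7 bases that a transcript must share with the strand to pair with positions 2 to 8 of the opposite guide strand.
RAB11A siRNA 1: gcauccagguuGAUGGAAa
RAB11A siRNA 2: agcaagagcuuUUGCAGAa

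AXL and EGFR were above control beyond counting error in both knockdown libraries, and VEGFA and FGF2 were below it beyond counting error in both. EREG was below control in both, outside counting error with siRNA 2 only. EPHA2, IGF1R and INSR were within counting error of control in both, and ERBB2 was below control outside counting error with siRNA 2 only. The 6 receptors together came to 745.8 CPM with siRNA 1 and 739.2 CPM with siRNA 2, against 642.2 CPM in control. The 3 growth factors together came to 109.8 CPM with siRNA 1 and 135.7 CPM with siRNA 2, against 206.7 CPM in control. In sum the growth factors stood at 53.1% and 65.7% of control with siRNA 1 and siRNA 2, and the receptors at 116.1% and 115.1%. VEGFA alone held 65.6, 94.0 and 142.8 CPM of the growth factor sums with siRNA 1, siRNA 2 and control. Without AXL the other 5 receptors came to 209.0 CPM with siRNA 1 and 192.3 CPM with siRNA 2, against 184.1 CPM in control, or 113.5% and 104.5% of control.

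**Figure D1:**
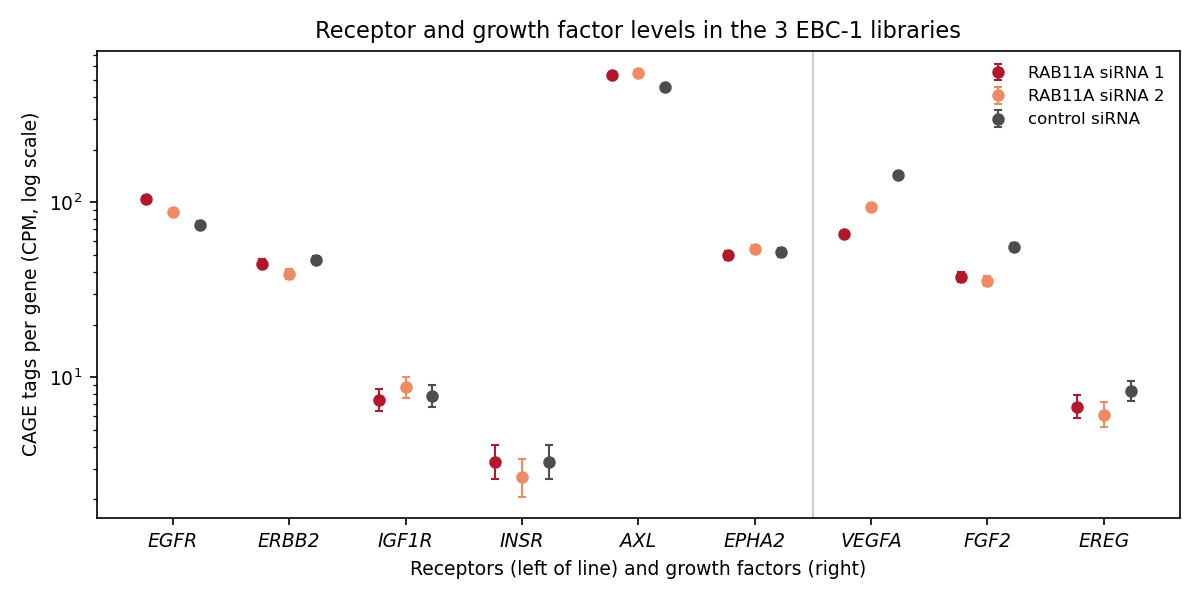
CAGE level of each gene in CPM on a log axis, for RAB11A siRNA 1, RAB11A siRNA 2 and control siRNA from left to right; each point is 1 library and bars are 95% Poisson intervals. AXL lies highest, at 536.8, 546.9 and 458.1 CPM, and VEGFA steps up through siRNA 1, siRNA 2 and control at 65.6, 94.0 and 142.8 CPM.

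Since CAGE gives 1 tag per transcript start, levels of different genes were compared without dividing by length. AXL was the highest of the 9 genes in every library and ranked 286th, 281st and 342nd of 13479 entries with siRNA 1, siRNA 2 and control. It made up 72.0%, 74.0% and 71.3% of the summed receptor tags in those libraries. The order below AXL differed between libraries. With siRNA 1 EGFR came next, 1.58 times as high as VEGFA (1.49 to 1.69), whereas in the control library VEGFA was 1.92 times as high as EGFR (1.81 to 2.03). With siRNA 2 VEGFA and EGFR lay close together, at a ratio of 1.07 (1.01 to 1.14). EPHA2, ERBB2 and FGF2 followed between 35.6 and 55.5 CPM in all libraries. FGF2 and EPHA2 could not be ordered in control (ratio 1.07, 0.994 to 1.16), nor could ERBB2 and FGF2 with siRNA 2 (1.09, 0.998 to 1.20). IGF1R and EREG lay between 6.12 and 8.76 CPM and could be ordered with siRNA 2 only, where IGF1R was 1.43 times as high (1.16 to 1.77). INSR was the lowest in every library.

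Differences between libraries are given as log2 ratios of (CPM + 1), which understates the difference of low genes, beside the plain percentage of the other library. Entries averaging 5 CPM or more over the libraries, or 125 tags, were compared, and 8 of the 9 members were among these 10788. INSR lay under that minimum. A difference of at least 1.5-fold on that scale was found for 1 member, VEGFA, with siRNA 1, where 5.37% of all compared entries were past it in either direction and 2.56% were lower. It was found for 2 members, VEGFA and FGF2, with siRNA 2, where 3.1% of entries were past it and 1.85% were lower. Under other scalings of the libraries the count with siRNA 2 was 0, because both ratios lie close to the threshold. At least 2-fold, VEGFA with siRNA 1 was the only member, against 0.89% of all entries with siRNA 1, of which 0.371% were higher and 0.519% lower. With siRNA 2 no member was 2-fold away, as 0.463% of entries were, 0.195% higher and 0.269% lower. Of the 8 members, 2 were above control in both libraries (31.4% of all entries) and 4 were below control in both (44.5%). The median log2 ratio of the 8 members was -0.07 with siRNA 1 and -0.09 with siRNA 2, and over all entries it was -0.03 and -0.04. Members lay on both sides of control, so these medians do not show the size of their differences. The median size of the log2 ratio, whatever its sign, was 0.246 for the members and 0.165 for all entries with siRNA 1, and 0.258 and 0.153 with siRNA 2. The members were chosen with earlier results of these data known, so these counts and medians are descriptions.

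**Figure D2:**
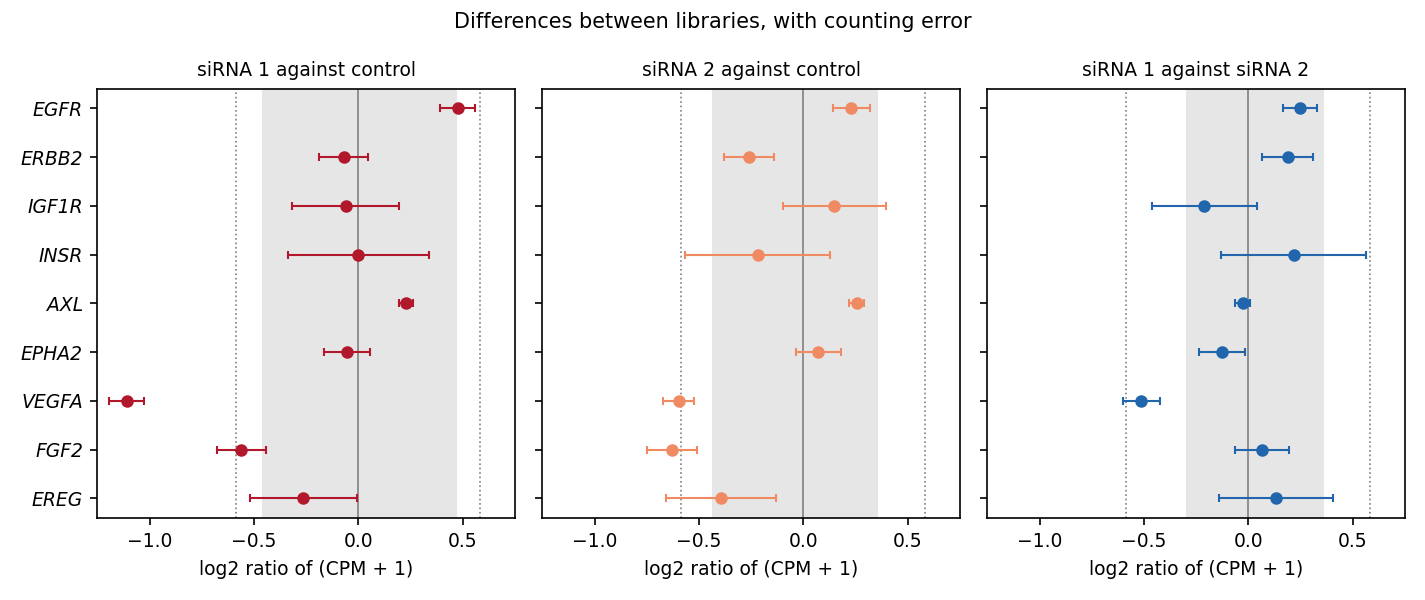
Log2 ratio of (CPM + 1) for each gene, for siRNA 1 against control, siRNA 2 against control and siRNA 1 against siRNA 2; bars are 95% counting intervals, the grey band spans the 5th to 95th percentile of all 10788 entries and dotted lines mark 1.5-fold. VEGFA at -1.11 and -0.60 and FGF2 at -0.56 and -0.63 lie left of the band against control.

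VEGFA (ENSG00000112715, chr6:43737921-43754224, plus strand, GRCh37) encodes the main secreted factor that drives blood vessel growth. It stood at 65.6 CPM with siRNA 1 (62.5 to 68.9) and 94.0 CPM with siRNA 2 (90.3 to 97.9), against 142.8 CPM in control (138.2 to 147.6). The 3 intervals do not overlap. The level with siRNA 1 was 46.0% of control (43.3% to 48.8%), a log2 ratio of -1.11 with a counting standard error of 0.0425. With siRNA 2 it was 65.9% of control (62.5% to 69.4%), a log2 ratio of -0.60 with a counting standard error of 0.038. Only 0.36% of compared entries had a lower ratio with siRNA 1, and 1.71% with siRNA 2. VEGFA also differed most between the knockdowns, with siRNA 1 at 69.8% of siRNA 2 (65.5% to 74.4%), where 1.04% of entries had a lower ratio. RAB11A was likewise lower with siRNA 1 than with siRNA 2, at 33.0% of its level there; whether the size of both differences is linked was not tested.

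FGF2 (ENSG00000138685, chr4:123747837-123819391, plus strand) encodes basic fibroblast growth factor, a heparin-binding ligand of the FGF receptors. It stood at 37.3 CPM with siRNA 1 and 35.6 CPM with siRNA 2, against 55.5 CPM in control. Both knockdown libraries were alike and below control. The level was 67.2% of control with siRNA 1 (61.8% to 73.1%, log2 ratio -0.56, counting standard error 0.0597). With siRNA 2 it was 64.0% of control (58.8% to 69.7%, log2 ratio -0.63, counting standard error 0.0605). Of all compared entries, 2.85% had a lower ratio with siRNA 1 and 1.48% with siRNA 2. The level with siRNA 1 was 105% of that with siRNA 2 (95.6% to 115.2%), within counting error. AC021205.1, annotated as a miRNA inside FGF2 on the same strand (chr4:123748169-123748245), carried the same 3 values, so both entries describe the same tags. NUDT6, which overlaps FGF2 on the opposite strand, stood at 10.3, 8.80 and 8.16 CPM with siRNA 1, siRNA 2 and control; each entry carries a strand, but no source used here says whether tags were assigned by strand.

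EREG (ENSG00000124882, chr4:75230862-75254466, plus strand) encodes epiregulin, an EGF-family ligand of EGFR and ERBB4. It stood at 6.80 CPM with siRNA 1 and 6.12 CPM with siRNA 2, against 8.36 CPM in control, from 170, 153 and 209 tags. Both knockdown values were below control, but only the siRNA 2 value lay outside counting error. The level was 81.3% of control with siRNA 1 (66.0% to 100.1%) and 73.2% with siRNA 2 (59.0% to 90.6%), log2 ratios of -0.26 and -0.39.

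EGFR (ENSG00000146648, chr7:55086710-55279321, plus strand), the receptor for EGF and its relatives, was the member furthest above control with siRNA 1, while with siRNA 2 AXL was slightly further above it. EGFR stood at 104.0 CPM with siRNA 1 (100.0 to 108.1) and 87.5 CPM with siRNA 2 (83.9 to 91.3), against 74.5 CPM in control (71.1 to 77.9). The libraries were ordered siRNA 1, siRNA 2 and control without overlap of their intervals. EGFR with siRNA 1 was 139.6% of control (131.5% to 148.3%, log2 ratio 0.48, counting standard error 0.0433). With siRNA 2 it was 117.5% of control (110.4% to 125.1%, log2 ratio 0.23, counting standard error 0.0449). Of all compared entries, 95.1% had a lower ratio with siRNA 1 and 88.8% with siRNA 2. The level with siRNA 1 was 118.8% of that with siRNA 2 (112.2% to 125.8%).

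ERBB2 (ENSG00000141736, chr17:37844167-37886679, plus strand), which has no known ligand of its own and pairs with the other EGF receptor family members, did not follow EGFR. It stood at 44.5 CPM with siRNA 1 and 38.9 CPM with siRNA 2, against 46.8 CPM in control. The siRNA 1 and control values lay within counting error of each other (95.1% of control, 87.6% to 103.4%). With siRNA 2 ERBB2 was 83.2% of control (76.3% to 90.6%, log2 ratio -0.26), and siRNA 1 stood at 114.4% of siRNA 2 (104.9% to 124.8%). Of all compared entries, 17.0% had a lower ratio than ERBB2 with siRNA 2, so its place was not extreme. PGAP3 and MIEN1 overlap ERBB2 on the opposite strand and have values of their own, at 8.44 to 11.9 CPM and 56.4 to 60.5 CPM.

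AXL (ENSG00000167601, chr19:41725128-41767671, plus strand) is the receptor for GAS6, a vitamin K-dependent ligand. It stood at 536.8 CPM with siRNA 1 (527.8 to 546.0) and 546.9 CPM with siRNA 2 (537.8 to 556.2), against 458.1 CPM in control (449.7 to 466.5). Both knockdown libraries were above control and within counting error of each other, siRNA 1 being 98.2% of siRNA 2 (95.8% to 100.5%). AXL was 117.2% of control with siRNA 1 (114.3% to 120.2%, log2 ratio 0.23, counting standard error 0.0183). With siRNA 2 it was 119.4% of control (116.5% to 122.4%, log2 ratio 0.26, counting standard error 0.0182). The counting interval is narrow because the control value rests on 11452 tags, and 83.7% and 90.6% of all compared entries had a lower ratio with siRNA 1 and siRNA 2.

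EPHA2 (ENSG00000142627, chr1:16450832-16482564, minus strand), a receptor for membrane-bound ephrin-A ligands, stood at 49.8 CPM with siRNA 1 and 54.4 CPM with siRNA 2, against 51.7 CPM in control. It was 96.2% of control with siRNA 1 (88.9% to 104.1%) and 105.2% with siRNA 2 (97.4% to 113.6%), so neither differed from control beyond counting error. With siRNA 1 it stood at 91.5% of siRNA 2 (84.6% to 98.9%), a difference between the libraries that the binomial test on tags, adjusted over all entries by Benjamini-Hochberg, did not call (exact adjusted p = 0.0626). The insulin and insulin-like growth factor receptors were the least abundant of the 6 receptors. IGF1R (ENSG00000140443, chr15:99191768-99507759, plus strand) stood at 7.44, 8.76 and 7.80 CPM with siRNA 1, siRNA 2 and control. It was 95.4% of control with siRNA 1 (77.6% to 117.2%) and 112.3% with siRNA 2 (92.2% to 136.9%), both within counting error. INSR (ENSG00000171105, chr19:7112266-7294425, minus strand) stood at 3.28 CPM with siRNA 1 and 2.68 CPM with siRNA 2, against 3.28 CPM in control. With 82, 67 and 82 tags smaller differences were not detectable at this depth, as the siRNA 1 interval ran from 72.7% to 137.5% of control and the siRNA 2 interval from 58.3% to 114.2%. Between siRNA 1 and siRNA 2 no member was 1.5-fold apart, where 1.59% of all entries were, 0.899% higher with siRNA 1 and 0.695% lower. None was 2-fold apart, where 0.352% of entries were, 0.167% higher and 0.185% lower.

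An exact two-sided binomial test on the recovered tags, which compares the libraries and not the conditions, was adjusted by Benjamini-Hochberg over all 10788 entries. It called 4 of the 8 members with siRNA 1 (EGFR and AXL higher, VEGFA and FGF2 lower), where it called 52.5% of all entries, 23.3% higher and 29.1% lower. With siRNA 2 it called those 4 with ERBB2 and EREG, both lower, where it called 48.3% of entries, 18.4% higher and 29.9% lower. Between siRNA 1 and siRNA 2 it called EGFR and ERBB2 higher and VEGFA lower with siRNA 1, where it called 36.8% of entries, 21.4% higher and 15.4% lower. At this depth, calls by that test are common in the whole table.

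Other genes with near-identical pairs of ratios to control were looked up for the 3 members furthest from it, by distance in the plane of both log2 ratios over entries averaging 20 CPM or more. The 5 nearest to VEGFA were CAMTA2, SESN2, RBCK1, CD68 and ZFAS1. CD68, also the 1 leukocyte marker with values, stood at 21.1, 31.4 and 45.2 CPM with siRNA 1, siRNA 2 and control; its part in the VEGFA result was not tested. SESN2, a stress-induced inhibitor of mTORC1, stood at 14.4 CPM with siRNA 1 and 19.8 CPM with siRNA 2, against 32.4 CPM in control. Nearest to FGF2, beside its own miRNA entry, were DNAL4, CERCAM, PREPL and TIMM44. Nearest to EGFR were LY6K, MIR3917, STMN1, NCEH1 and ZWINT, of which ZWINT, a kinetochore protein gene, stood at 69.2 CPM with siRNA 1 and 59.3 CPM with siRNA 2, against 50.0 CPM in control. The likeness rests on 3 libraries and a shared control.

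The 8 lists of genes around these receptors and ligands held 168 symbols, of which 99 had an entry and 76 entries were compared.
With siRNA 1, 4 of the 76 entries were at least 1.5-fold higher than control and 6 at least 1.5-fold lower (2.81% and 2.56% of all entries). With siRNA 2, 0 were 1.5-fold higher and 1 was 1.5-fold lower (1.24% and 1.85% of all entries). The lists were chosen with earlier results of these data known, and their counts and medians are descriptions.

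**Figure D3:**
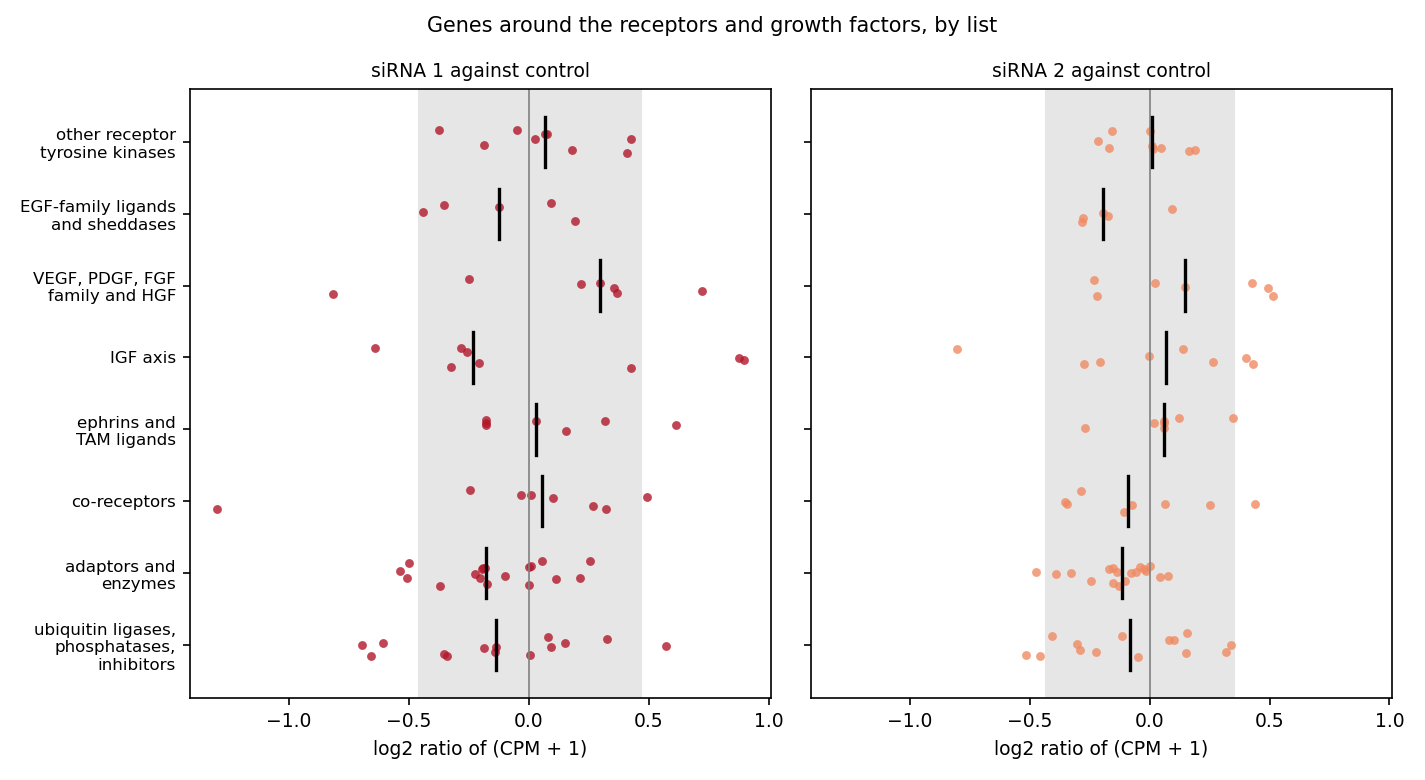
Log2 ratio of (CPM + 1) to control of every compared entry of the 8 lists, for siRNA 1 on the left and siRNA 2 on the right; each point is 1 entry, black bars are list medians and the grey band spans the 5th to 95th percentile of all 10788 entries. The point furthest left with siRNA 1 is NRP1 at -1.30, and the IGF axis has IGFBP3 at 0.90 and IGFBP7 at 0.88.

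Of 51 other receptor tyrosine kinases, 16 had an entry and 9 were compared. The list's median log2 ratio was 0.07 (siRNA 1) and 0.01 (siRNA 2). None of the 9 compared was 1.5-fold from control in either library. FGFR1, a receptor for FGF2, stood at 59.0 and 59.4 CPM with siRNA 1 and siRNA 2, against 52.0 CPM in control (log2 ratios 0.18 and 0.19, counting standard errors 0.0539 and 0.0538). MET, the receptor for hepatocyte growth factor, stood at 91.8, 93.1 and 90.0 CPM with siRNA 1, siRNA 2 and control. PTK7, a catalytically inactive receptor of Wnt signalling, had ratios of 0.43 and 0.16, and EPHB4, a receptor for ephrin-B2, -0.19 and -0.16. KDR and FLT1, the receptors through which VEGFA acts on endothelium, and ERBB4 matched no entry in the table used here.

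The ligands did not lie on 1 side of control. Of 30 other VEGF, PDGF and FGF family genes and HGF, 7 were compared. Of these, 5 were above control in both libraries and 2, PDGFA and VEGFB, were below it in both, as 31.4% and 44.5% of all entries were. FGF1, acidic fibroblast growth factor, stood at 101.9 CPM with siRNA 1 and 82.8 CPM with siRNA 2, against 61.3 CPM in control (log2 ratios 0.72 and 0.43, counting standard errors 0.046 and 0.0479). FGF5 stood at 71.0 CPM with siRNA 1 and 79.3 CPM with siRNA 2, against 55.3 CPM in control (0.36 and 0.51). The 3 FGF genes above 20 CPM therefore pointed different ways, with FGF1 and FGF5 above control where FGF2 was below it. PDGFC had ratios of 0.30 and 0.15 and PDGFA, a ligand of the PDGF receptors, -0.25 and -0.22. VEGFB, a VEGF relative that binds FLT1, was chosen after its values were seen: it stood at 6.64 CPM with siRNA 1 and 10.4 CPM with siRNA 2, against 12.4 CPM in control (-0.81 and -0.23). The list's medians were 0.30 with siRNA 1 and 0.15 with siRNA 2.

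Of 15 other EGF-family ligands and the enzymes that release them, 5 were compared, with medians of -0.12 with siRNA 1 and -0.19 with siRNA 2. Restricted to entries averaging 20 CPM the siRNA 1 median turned to 0.09, so it carries no direction. ADAM17, the protease that sheds EREG and other EGFR ligands, stood at 65.1 CPM with siRNA 1 and 68.6 CPM with siRNA 2, against 83.4 CPM in control (-0.35 and -0.28). RHBDF1, an inactive rhomboid that helps ADAM17 mature, had ratios of -0.12 and -0.28. ADAM10, the related sheddase of other EGF-family ligands, was on the other side, at 148.2 and 138.2 CPM with siRNA 1 and siRNA 2, against 129.6 CPM in control (0.19 and 0.09).

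In the insulin-like growth factor axis 8 of 13 genes were compared, with medians of -0.23 with siRNA 1 and 0.07 with siRNA 2. With entries down to 1 CPM the siRNA 2 median turned to -0.002, so it carries no direction. IGFBP3, a secreted carrier that holds IGF away from IGF1R, stood at 84.3 CPM with siRNA 1 and 60.7 CPM with siRNA 2, against 44.7 CPM in control (log2 ratios 0.90 and 0.43, counting standard errors 0.0524 and 0.0558). IGFBP7, a related secreted protein, had 24.3 and 17.2 CPM against 12.8 CPM in control (0.88 and 0.40). IGF2R, the receptor that clears IGF2 and carries enzymes to lysosomes, stood at 78.0 CPM with siRNA 1 and 105.8 CPM with siRNA 2, against 122.3 CPM in control (-0.64 and -0.21). IRS1, the docking protein of IGF1R and INSR, had ratios of -0.26 and -0.27. IGFBP4, chosen after its values were seen, was the only compared entry of the 8 lists 1.5-fold below control with siRNA 2, at 3.36 CPM against 6.60 CPM in control. With siRNA 1 IGFBP4 stood at 5.24 CPM (log2 ratio -0.28).

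Of the ephrins and the ligands of AXL and its relatives, 7 entries were compared. Of these, 3 carry 1 set of values, as EFNA3 (listed under 2 identifiers) and EFNA4 are identical. GAS6, the ligand of AXL, stood at 199.3 CPM with siRNA 1 and 161.7 CPM with siRNA 2, against 159.9 CPM in control (0.32 and 0.02). PROS1, protein S, a ligand of the AXL relatives TYRO3 and MERTK, had ratios of 0.16 and 0.12. EFNB2, chosen after its values were seen, was 1.5-fold higher with siRNA 1, at 9.40 CPM against 5.80 CPM in control. With siRNA 2 EFNB2 stood at 7.64 CPM (log2 ratio 0.35). The medians were 0.03 with siRNA 1 and 0.06 with siRNA 2. Counting identical entries once gave 0.16 with siRNA 1.

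Among 8 compared co-receptors the medians were 0.06 with siRNA 1 and -0.09 with siRNA 2. NRP1, neuropilin 1, which binds VEGFA and presents it to its receptors, stood at 5.64 CPM with siRNA 1 and 12.4 CPM with siRNA 2, against 15.4 CPM in control. Its log2 ratio was -1.30 with siRNA 1 and -0.29 with siRNA 2, with counting standard errors of 0.124 and 0.103, and siRNA 1 against siRNA 2 gave -1.01. VEGFA and NRP1 were thus both more than 2-fold below control with siRNA 1. CD44, a hyaluronan receptor that can carry growth factors, stood at 111.2 CPM with siRNA 1 and 107.1 CPM with siRNA 2, against 78.7 CPM in control (0.49 and 0.44). GPC1, a cell-surface heparan sulfate proteoglycan that binds FGF2, had ratios of -0.25 and -0.34, and SDC1, another such proteoglycan, 0.10 and 0.06.

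The 18 compared entries for adaptors and enzymes that bind activated receptors had medians of -0.18 with siRNA 1 and -0.12 with siRNA 2, and 11 were below control in both libraries (44.5% of all entries were). None was 1.5-fold from control. PIK3R2 was counted under 2 identifiers with close values, 39.2 and 37.7 CPM with siRNA 1. Both PIK3R2 entries are among the 11 below control. SHC1, the adaptor that links many receptors to RAS, was more abundant than AXL, at 595.0 CPM with siRNA 1 and 621.4 CPM with siRNA 2, against 862.6 CPM in control (log2 ratios -0.54 and -0.47). GRB10, an adaptor that inhibits insulin and IGF receptor signalling, had ratios of -0.51 and -0.33. RASA1, a RAS GTPase-activating protein, had -0.50 and -0.39, and SOS2, a RAS exchange factor, -0.19 and -0.17.

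The 14 compared ubiquitin ligases, phosphatases and inhibitors of receptors had medians of -0.14 with siRNA 1 and -0.08 with siRNA 2, the second being 0.08 among entries averaging 20 CPM. ERRFI1 (MIG6), a feedback inhibitor that binds the EGFR kinase domain, stood at 157.2 CPM with siRNA 1 and 173.8 CPM with siRNA 2, against 248.8 CPM in control (log2 ratios -0.66 and -0.52, counting standard errors 0.0292 and 0.0284). EGFR and this inhibitor thus lay on opposite sides of control. Also 1.5-fold lower with siRNA 1 were RNF41, a ubiquitin ligase of ERBB3, and CBLB, a ubiquitin ligase of EGFR. Both were chosen after their values were seen. RNF41 had ratios of -0.69 with siRNA 1 and -0.30 with siRNA 2, and CBLB -0.61 and -0.12. SH3KBP1, which links CBL to receptor uptake, had ratios of -0.35 and -0.41. EPS15, a clathrin adaptor and EGFR substrate, had -0.34 and -0.46. PTPRF, a receptor-type phosphatase, was on the other side, at 120.3 CPM with siRNA 1 and 102.0 CPM with siRNA 2, against 80.5 CPM in control (0.57 and 0.34).

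An siRNA can lower other transcripts that match the seed of its guide strand, so exact matches to those 7 bases were counted in the canonical 3′ UTRs of the 9 members. Of 11272 listed genes with such a UTR, 14.7% hold the siRNA 1 match and 16.0% the siRNA 2 match. VEGFA, AXL and ERBB2 hold neither. IGF1R holds 5 matches to siRNA 1 in 7088 bases and none to siRNA 2, EGFR holds 2 and 1 in 6011 bases, and INSR 1 and 2 in 4791 bases. FGF2 and EREG hold 1 match to siRNA 1 each and EPHA2 holds 1 to siRNA 2. The sites are shown for IGF1R, which has the most, and for FGF2 and EREG, which were below control, with the match in capitals and flanks in lower case.
IGF1R site 1: aaacacgtggaGATGGAAatttttacctt
IGF1R site 2: gcttctgtgcaGATGGAAtgaccaacaca
IGF1R site 3: cctccttggaaGATGGAAgaccgtgttcg
IGF1R site 4: ctactttaacaGATGGAAagaacctcatt
IGF1R site 5: ccagaaggcggGATGGAAtggatgcaccg
FGF2 site: tcatcctctgtGATGGAAtggtcaggaat
EREG site: tgttgtcttaaGATGGAAatacagttatt

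IGF1R, with 5 siRNA 1 matches, stood at 95.4% of control with siRNA 1 and at 84.9% of its siRNA 2 level (69.5% to 103.7%). With no match, VEGFA, AXL and ERBB2 stood at 46.0%, 117.2% and 95.1% of control with siRNA 1. INSR, with 1 match to siRNA 1 and 2 to siRNA 2, stood at 100.0% and 81.7% of control with them, within counting error. EPHA2, with 1 match to siRNA 2, stood at 105.2% of control there. FGF2 and EREG hold a match to siRNA 1 only. They stood at 67.2% and 81.3% of control with siRNA 1 and 64.0% and 73.2% with siRNA 2. EGFR, with 2 matches to siRNA 1 and 1 to siRNA 2, was above control in both libraries. A match is a description of the sequence and does not show pairing, and CAGE counts the 5′ end of the transcript and not its 3′ UTR. Whether seed matches had a part in any of these levels was not tested.

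RefSeq promoter windows (GRCh38.p14, 250 bases before to 50 after the start) were found for 8 of the 9 members, with 10 windows in all; VEGFA had no entry. They are shown for the genes furthest above control in both libraries, EGFR and AXL, and for FGF2 and EREG, the genes with a window that were furthest below it, at the first listed start. Capitals mark matches on either strand to GGGCGG (the SP1/KLF core), TGANTCA (AP-1), GGAATG (TEAD), ACGTG (the HIF core) and TGATGNA (the start of the ATF4-CHOP composite site).
EGFR, chr7:55018767-55019066, plus strand: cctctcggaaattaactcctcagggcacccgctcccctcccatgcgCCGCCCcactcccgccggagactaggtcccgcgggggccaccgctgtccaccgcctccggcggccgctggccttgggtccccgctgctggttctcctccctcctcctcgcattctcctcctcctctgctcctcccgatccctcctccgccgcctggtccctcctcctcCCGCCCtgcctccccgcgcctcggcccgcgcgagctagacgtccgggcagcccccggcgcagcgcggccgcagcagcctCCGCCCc
AXL, chr19:41218973-41219272, plus strand: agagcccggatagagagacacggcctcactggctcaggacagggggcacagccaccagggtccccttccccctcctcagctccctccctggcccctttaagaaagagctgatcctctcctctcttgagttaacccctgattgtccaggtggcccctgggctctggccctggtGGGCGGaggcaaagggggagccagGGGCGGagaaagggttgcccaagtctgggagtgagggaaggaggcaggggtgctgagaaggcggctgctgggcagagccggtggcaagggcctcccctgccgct
FGF2, chr4:122826581-122826880, plus strand: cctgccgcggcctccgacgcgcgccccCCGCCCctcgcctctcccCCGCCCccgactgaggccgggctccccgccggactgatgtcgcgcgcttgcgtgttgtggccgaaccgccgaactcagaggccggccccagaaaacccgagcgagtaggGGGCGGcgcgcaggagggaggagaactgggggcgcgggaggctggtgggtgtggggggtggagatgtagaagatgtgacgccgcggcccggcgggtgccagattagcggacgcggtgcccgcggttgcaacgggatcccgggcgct
EREG, chr4:74364895-74365194, plus strand: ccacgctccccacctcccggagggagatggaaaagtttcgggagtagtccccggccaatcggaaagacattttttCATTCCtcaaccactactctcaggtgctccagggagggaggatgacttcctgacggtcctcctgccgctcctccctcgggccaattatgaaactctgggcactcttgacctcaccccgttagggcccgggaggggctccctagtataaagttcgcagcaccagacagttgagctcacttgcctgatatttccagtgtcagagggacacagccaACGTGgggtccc

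The windows of EGFR, AXL and FGF2 hold 3, 2 and 3 GGGCGG matches and no match to the other motifs. EGFR and AXL were above control and FGF2 below it, and the part of any motif in these levels was not tested. Of 35116 promoter windows, 45.0% hold GGGCGG. EREG holds no GGGCGG, and has 1 GGAATG and 1 ACGTG match, which 14.0% and 21.4% of windows hold. TGANTCA is found in 7.7% of windows and TGATGNA in 10.0%, and no member window holds TGATGNA. The second EGFR window holds 2 TGANTCA and 1 GGAATG match, the second AXL window 2 ACGTG and 1 GGAATG, and which start the tags came from is not resolved by a table of 1 value per gene. The EGFR and FGF2 windows are 75.3% and 74.7% G and C, against a median of 58.7% over all windows, AXL stands at 66.0% and EREG at 57.7%.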

How the data were processed

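Per the file header, the authors deposited CPM values in 1 table with a row per gene, its strand, and a column for each CAGE library; column names gave the library. Hg19, BWA and HISAT2 are named in the submitters' processing notes. No source used here gives their versions or roles, the counting or the annotation. Every listed entry reached 0.52 CPM in at least 1 library. Deposited values were whole multiples of about 0.04 CPM for 100.0% of values within 0.005 CPM, which gave 24999950 tags in every library. Only totals close to the one this step implies were tried, so the exact figure is approximate. Tags summed over entries came to 25204585, 25137457 and 25174787 for siRNA 1, siRNA 2 and control. These sums exceed that total, so some tags appear to count in more than 1 entry. Among compared entries 837 shared all values with another. A count of 0 tags allows up to 0.12 CPM, by a limit of 3 tags.

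Log2 ratios of (CPM + 1) were taken over entries averaging 5 CPM or more; INSR was left out of counts and medians. Counting standard errors came from Poisson variances and ratio intervals from exact binomial intervals. Calls past 1.5-fold and 2-fold were counted, and the functions were tested on simulated data. Of each list the text names up to 4 genes averaging 10 CPM or more, with the same sign in both siRNA libraries and the largest smaller ratio. Members, lists and the rule were chosen with earlier results of these data known. Lists count table entries, and 2 symbols have 2 entries each.

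Annotation was GENCODE lifted to GRCh37. The first 50 bases of annotated starts were searched in the genome with minimap2 2.31 and samtools 1.23.1. At most 2 mismatches were allowed: 1 of 16 IGF1R starts matched elsewhere and none of the other 8 members' starts did. The search did not place every start at its own gene, so it can also miss matches elsewhere. It placed 11 of 12 for EGFR, 20 of 21 for ERBB2, 15 of 16 for IGF1R and 6 of 7 for INSR. For EPHA2 it placed 3 of 4 and for VEGFA 14 of 15. Scaling alternatives used edgeR 4.0.16 and DESeq2 1.42.0 in R 4.3.3 on recovered tags, and other work used Python 3.11.15, numpy 2.4.6, pandas 2.3.3, scipy 1.17.1 and matplotlib 3.10.9. Other pseudocounts, minimum means and the binomial test were also tried, and counting identical entries once was added after seeing the data.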

Additional observations from a re-analysis of the deposited data

Results flagged for a closer look

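IGF1R was below control with siRNA 1 and above control with siRNA 2, at 7.44 and 8.76 CPM against 7.80 CPM, and siRNA 1 against siRNA 2 gave a log2 ratio of -0.21. EPHA2 was likewise below control with siRNA 1 and above it with siRNA 2, at 49.8 and 54.4 CPM against 51.7 CPM, with -0.13 for siRNA 1 against siRNA 2. The exact binomial test on tags, which compares the libraries only, called neither difference, with Benjamini-Hochberg adjusted p = 0.215 for IGF1R and 0.0626 for EPHA2. With 1 library in each group, whether the knockdowns differ as conditions was not tested.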

How the results depend on the processing

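No paired analysis was possible because each group has 1 library, and for the same reason no library could be left out. Of 135 member ratios recomputed under other pseudocounts, scalings or without a pseudocount, 133 stayed within their counting interval; AXL with siRNA 2 gave 0.30 under both scalings. The members 1.5-fold from control with siRNA 2, VEGFA and FGF2, numbered 0 with a pseudocount of 5 CPM, under TMM and under median ratios, against 2. The member median with siRNA 2 was -0.22 over 9 genes both without a filter and at a 1 CPM minimum, where INSR enters. Scalings moved the median of all entries by under 0.05. Counts over all entries moved with the settings. With a pseudocount of 5 CPM, 352 (siRNA 1), 201 (siRNA 2) and 89 (siRNA 1 against siRNA 2) were 1.5-fold apart, against 579, 334 and 172, and 50 were 2-fold apart with siRNA 1, against 96. At a minimum mean of 20 CPM these were 339, 179 and 74 at 1.5-fold and 51, 21 and 11 at 2-fold, against 96, 50 and 38. At 1 CPM they were 268 at 1.5-fold between the siRNAs and 79 at 2-fold with siRNA 2. With no filter they were 522 (siRNA 2) and 301 (between the siRNAs) at 1.5-fold and 147, 85 and 60 at 2-fold. Fewer or more entries enter at other minimum means. A larger pseudocount shrinks the log2 ratios by its arithmetic, most for low entries, so fewer pass a fold.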
